A study of Homo sapiens with 20 samples.

Results

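The untreated cultures of 5 triple-negative breast cancer (TNBC) cell lines were compared between the 2 lines in which RB1 RNA was not measurable, BT549 and MDA-MB-468, and the 3 lines in which it was, SUM149, MDA-MB-157 and MDA-MB-231. The lines were chosen by the detection p-value of the only named RB1 probe on the array, ILMN_1696591, which had to be 0.05 or more on all arrays of a line for the first kind and under 0.05 on all for the second. This gave 4 untreated arrays without and 6 with RB1 RNA, 10 of the 20 arrays of the series. Each line had 2 untreated cultures, labelled A and B, which were starved for 24 h in serum-free medium. They were then kept for 48 h without the wound-healing fluids (WHFs) that the other 10 cultures received at 5%. All 5 are established human lines, and BT549, MDA-MB-231 and MDA-MB-157 are classed as mesenchymal-like, MDA-MB-468 and SUM149 as basal-like. The lines were maintained in different media before starvation, and every difference between the kinds is also a difference between 2 and 3 unrelated tumor genomes. RB1 loss thus cannot be told apart from anything else that separates these lines.

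The retinoblastoma protein holds the E2F transcription factors in check in G1. When growth signals raise cyclin D, the kinases CDK4 and CDK6 phosphorylate it and E2F is freed to switch on the genes of DNA replication, and the INK4 inhibitors, among them p16 from CDKN2A, block those kinases. With its relatives p107 and p130 it keeps the S-phase genes silent in cells deprived of serum, and its loss is frequent in basal-like breast cancer. Tumors that lack it are known for high p16 and low cyclin D1.

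The untreated arrays each detected between 20793 and 22865 probes, with median bead signals between 117 and 163, and the most similar array was one of the same line for 10 of 10. The precision is limited by the number of lines, 2 against 3, since replicate arrays of a line share its genome. The chip that held BT549 also held MDA-MB-157, and that of MDA-MB-468 also SUM149, so that each gave 1 comparison within a chip, while MDA-MB-231 had a chip of its own. Epithelial markers followed the subtype and not the kind, with per-line medians of 3.50 in MDA-MB-468 and 2.50 in SUM149 and values below 0 in the mesenchymal-like lines, the lowest −2.14 in BT549, on a log2 scale relative to the mean of the 5 lines. Of 5 leukocyte markers with a probe, PTPRC and CD3E were below background on all 10 untreated arrays. CD68, a lysosomal protein of macrophages, was detected on 10 of 10, at log2 6.89 in MDA-MB-468 and 10.22 to 12.70 elsewhere, a difference of −3.33 between the kinds (unadjusted p = 0.0414 in limma), and LYZ was detected on 3 of 4 and 0 of 6. Further CD68 probes gave −2.45 and −0.91 and overlapped between the kinds (unadjusted p = 0.0985 and 0.189 in limma). CD79A, the other marker that passed the filter, went the other way, by 0.23. Their part in the results was not tested.

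RB1 itself was read at background in BT549 (log2 normalized signal 4.90 and 5.01 in replicates A and B) and in MDA-MB-468 (5.11 and 5.31). It was at 7.75 and 7.64 in MDA-MB-157, at 8.43 and 8.89 in MDA-MB-231 and at 8.46 and 8.02 in SUM149. These values chose the kinds and are given without a test. On this scale 1 unit is a 2-fold change, after an offset of 16 was added to the background-corrected signal, which understates the changes of dim probes. The lowest detection p of the arrays without RB1 RNA was 0.143, in untreated MDA-MB-468 B, and the highest of the arrays with it was 0, so that no array lay close to the threshold. The WHF-treated arrays of each line fell on the same side. Since at least 1 kind was below background, the signal is given as a bound, at least 5.97-fold lower in the lines without RB1 RNA. A single probe reads 1 stretch of the transcript, and RNA that lacks it would not be seen.

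CCND1, which encodes cyclin D1, was low in both lines without RB1 RNA. Its log2 signal was 10.28 and 9.35 in BT549 and 10.79 and 10.93 in MDA-MB-468. It was 11.59 and 11.68 in MDA-MB-157, 13.98 and 13.96 in MDA-MB-231 and 12.87 and 12.74 in SUM149. All 4 arrays without RB1 RNA were thus below all 6 with it. The means were 10.34 ± 0.74 (SD, n = 2 lines) and 12.81 ± 1.17 (n = 3 lines), a difference of −2.47 ± 0.78 (SE), or 5.53-fold. In limma, the unadjusted p was 0.0241 and the adjusted p over all probes was 0.9996, so that CCND1 did not pass. Within the chips the differences were −1.82 between BT549 and MDA-MB-157 and −1.95 between MDA-MB-468 and SUM149.

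CDKN2A, the gene of p16 and p14ARF, was highest in BT549, at 12.64 and 12.55, and was 9.61 and 9.40 in MDA-MB-468. Among the lines with RB1 RNA it lay between these in MDA-MB-157 (10.86 and 11.09) but was at background in MDA-MB-231 (4.77 and 4.86) and SUM149 (4.95 and 4.92). The kinds therefore overlapped, with a difference of 4.14 ± 2.20 (SE, unadjusted p = 0.116 in limma). Another probe of the gene gave 4.07. Of its 3 neighbours on 9p21, CDKN2B and MTAP showed the same split of lines, and DMRTA1, a transcription factor gene, differed by −0.02 and was above background on both arrays of BT549 (6.27 and 6.72) and MDA-MB-157 (8.16 and 8.05). CDKN2B, the gene of the INK4 inhibitor p15, was at 9.22 in MDA-MB-468, 11.03 in BT549 and 11.03 in MDA-MB-157, against 5.20 in MDA-MB-231 and 5.26 in SUM149. MTAP, an enzyme of methionine salvage with no role in the RB1 pathway, was at 10.10, 9.80 and 9.95 in BT549, MDA-MB-468 and MDA-MB-157 and at 5.28 and 5.46 in the other lines. Of the 10 arrays, MTAP was above background on 4 of 4 without and 3 of 6 with RB1 RNA. The low values thus covered 3 adjacent genes in the same 2 lines, and whether the DNA was deleted there was not tested. The difference in CDKN2A between the kinds rested on MDA-MB-231 and SUM149, and within the chip of BT549 and MDA-MB-157 it was 1.62.

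**Figure D1:**
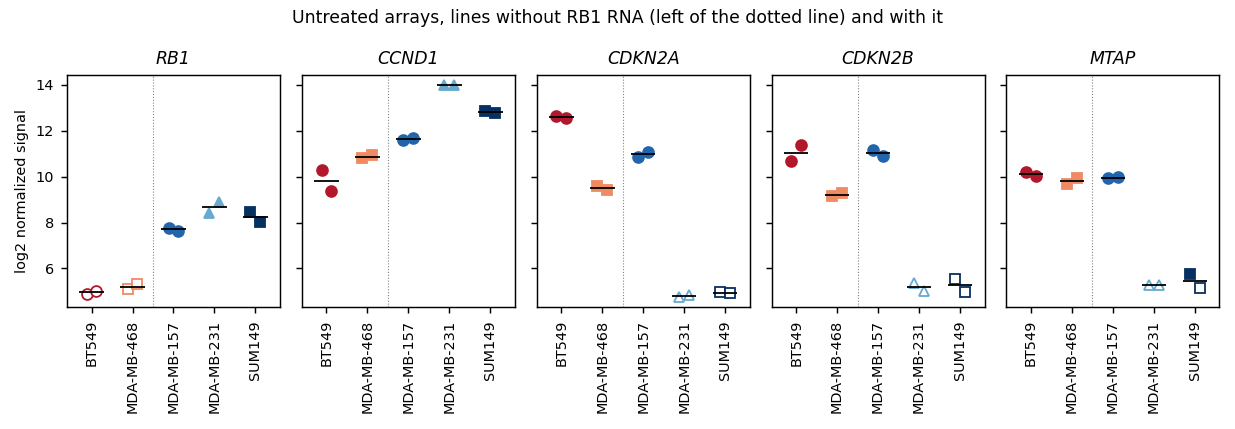
Log2 normalized signal (vertical axis) of 5 genes on the 10 untreated arrays, 2 points a line, with a bar at the line mean. Filled points were above background (detection p under 0.05) and open points were not. CCND1 was lower on all 4 arrays without RB1 RNA, and CDKN2A, CDKN2B and MTAP were low in MDA-MB-231 and SUM149 together.

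The other G1 regulators did not separate the kinds. CDK4 differed by 0.15 and its partner CDK6 by −0.97, with CDK6 ranging over the lines from 9.06 (MDA-MB-468) to 12.20 (MDA-MB-157). CCND2 and CCND3, which encode the other D-type cyclins, differed by −1.04 and −0.20. CDKN2D, the gene of p19, was at 0.89. RBL1 and RBL2, which encode p107 and p130, were detected on all 10 arrays in both kinds and differed by 0.57 and 0.21. Neither stood apart from the spread between lines (unadjusted p = 0.373 and 0.690 in limma). CDKN1A, the gene of p21, was 10.44 and 11.68 in the lines without and 10.88 to 13.42 in the lines with RB1 RNA, and CDKN1B, the gene of p27, overlapped as well. Of the 8 tested genes of the cyclin D and INK4 list, 4 were higher without RB1 RNA and 4 lower.

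SKP2 and FBXW7, which encode substrate-binding subunits of ubiquitin ligases, were the members of the cyclin E and CDK2 list whose arrays did not overlap. This was 1 of 8 tested members each way, beside 5.27% of all genes above and 4.56% below. SKP2, whose product marks p27 for destruction, was higher in BT549 (12.08 and 12.10) and MDA-MB-468 (11.60 and 11.66) than in MDA-MB-157 (11.27 and 11.34), MDA-MB-231 (10.36 and 10.04) and SUM149 (10.62 and 10.73). Its difference was 1.13 ± 0.45 (SE, unadjusted p = 0.0513), and 2 further probes gave 1.48 and 1.13. FBXW7, whose product marks cyclin E for destruction, differed by −0.67 ± 0.38, and further probes gave −0.66 and 0.13. CCNE1, the gene of cyclin E1 and an E2F target, went opposite ways in the chips, by −2.93 in BT549 and 0.96 in MDA-MB-468. CCNA1, a germline cyclin A, was below background on 4 of 4 arrays without RB1 RNA and detected on 5 of 6 with it, at least 4.88-fold lower (measured means 4.90 and 7.91, adjusted p = 0.9996 in limma).

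Of the E2F factors themselves, 5 of 10 were higher and 5 lower in the lines without RB1 RNA, with a median of 0.07. E2F1 was higher in both chips, by 0.66 and 0.59, and by 0.56 ± 0.30 over the 5 lines (unadjusted p = 0.121). E2F2 was at 12.42 in MDA-MB-468, 10.81 in SUM149, 9.99 in BT549, 9.29 in MDA-MB-157 and 7.15 in MDA-MB-231, an order that the 2 kinds share. E2F4, which represses together with p130 in resting cells, was lower, by −0.95 ± 0.52. E2F7, E2F8 and TFDP1 overlapped between the kinds.

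Genes of DNA replication were higher in the lines without RB1 RNA nearly throughout. Of 41 genes on the list of E2F-driven replication genes, all of which passed the filter, 40 were higher, with a median difference of 0.58, beside 50.5% higher and a median of 0.01 among the 12883 genes tested (1 probe a gene). The range ran from −0.14 for POLE2, a subunit of the leading-strand polymerase, to 1.72 for CDT1, which loads the MCM helicase at origins. The members share cell cycle regulation and are not independent of each other, and the list was drawn up with results of these data known. None passed limma's test at an adjusted p under 0.1, the threshold of the study's methods, and of all 23516 probes tested 0% did, although 942 had an unadjusted p under 0.05. At an unadjusted p under 0.05, 3 of the 41 were higher and 0 lower, against 2.62% of all genes higher and 1.86% lower. For 9 members all 4 arrays without RB1 RNA were above all 6 with it, a pattern of 5.27% of all genes, and for 0 members were they below, as for 4.56% of all genes.

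CDC7, the kinase that fires licensed origins, was at 10.19 and 10.08 in BT549 and at 10.20 and 10.37 in MDA-MB-468. It was 8.78 and 8.96 in MDA-MB-157, 8.88 and 8.69 in MDA-MB-231 and 9.33 and 9.53 in SUM149. The lowest array without RB1 RNA lay above the highest with it, and the difference was 1.18 ± 0.36 (SE, unadjusted p = 0.0198 in limma). POLD1, the catalytic subunit of DNA polymerase delta, was 9.26 and 9.03 in BT549 and 9.48 and 9.60 in MDA-MB-468, against 8.13 and 7.82 in MDA-MB-157, 8.63 and 8.41 in MDA-MB-231 and 8.02 and 8.26 in SUM149. Its difference of 1.13 ± 0.35 (unadjusted p = 0.0223) was as large within the chips, at 1.17 and 1.40. CLSPN, whose product claspin carries the replication checkpoint signal, differed by 1.19 ± 0.39 but overlapped, since SUM149 B reached 6.74 and BT549 A was at 6.59. MCM5, a helicase subunit, was 9.75 to 10.26 on the arrays without and 8.53 to 9.65 on those with RB1 RNA. The origin recognition gene ORC1 and the sliding clamp gene PCNA differed by 1.27 and 1.15, and both overlapped.

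The pattern was not that of a single line. Per-line medians over the 41 genes, relative to the mean of the 5 lines, were 0.28 in BT549 and 0.63 in MDA-MB-468, and 0.00 in SUM149, −0.15 in MDA-MB-157 and −0.47 in MDA-MB-231. By array they were 0.22 to 0.63 without and −0.59 to 0.08 with RB1 RNA, so that they did not overlap. SUM149 lay close to BT549, and MDA-MB-231 was the lowest line. Within the chips the medians were 0.38 for BT549 minus MDA-MB-157 and 0.57 for MDA-MB-468 minus SUM149. Of the 41 genes, 23 were higher in both chips and 0 lower in both, beside 24.7% of all genes higher in both. The remainder went opposite ways, among them MCM10, which was −1.29 in the chip of BT549 and 0.48 in that of MDA-MB-468, and RPA1, which was 1.74 and −1.11.

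**Figure D2:**
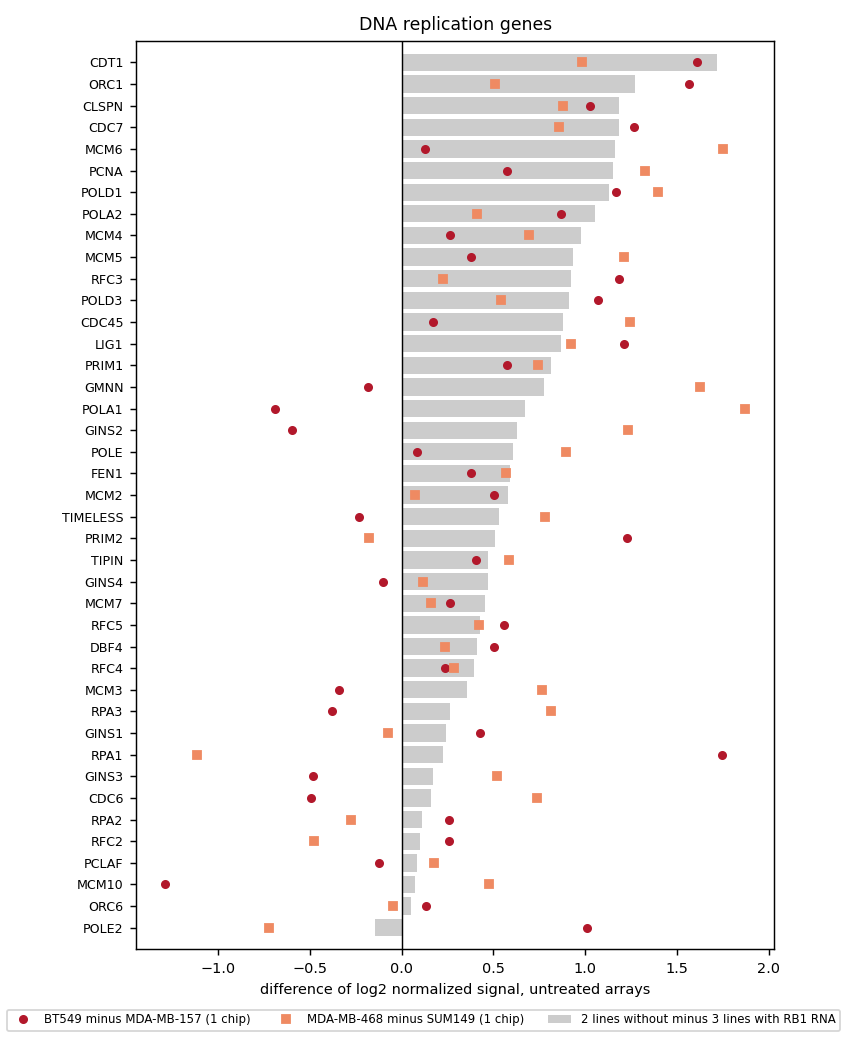
Difference in log2 normalized signal (horizontal axis) of 41 DNA replication genes between untreated lines without and with RB1 RNA. Grey bars give the mean of 2 lines minus the mean of 3, circles BT549 minus MDA-MB-157 and squares MDA-MB-468 minus SUM149. Bars lie right of 0 for 40 genes, while circles and squares lie on opposite sides for a good part of the lower ones.

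The promoters of these genes hold E2F words more often than other promoters do, which the choice of E2F-driven genes for the list implies. Windows from 250 bases before to 50 after the transcription start were taken from RefSeq (GRCh38.p14), in which 35 of the 41 genes matched with 46 windows, as a gene can have several starts. The 8-letter words TTTGGCGC, TTTCGCGC and TTTCCCGC were searched on both strands. At least 1 word stood in 21 of 46 windows, or 45.7%, against 3.97% of the 14917 windows of all tested genes and 2.74% of all 35093 windows. Among genes of replication-coupled chromatin the share was 44.4%, and among G2/M genes 8.33%. The G2/M genes instead held the 6-letter words TTTGAA or TTCGAA (the second reads the same on both strands), the cell cycle homology region through which the MuvB complex acts, in 33 of 48 windows (68.8%, against 12.3% for all tested genes). The lists were chosen for known cell cycle roles, so that these shares describe the lists and are no result of the comparison. A match is a stretch of letters and not a bound site.

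The windows of 4 genes with an E2F word and of 1 G2/M gene with the homology word are shown, as examples among the members with an unadjusted p under 0.05. STMN1 had an E2F word too, in 2 of 3 windows, while POLD1, USP1 and RAD54L had none, and MELK had no homology word. The windows are printed 5′ to 3′ on the gene's own strand with the words in capitals. The start site follows base 250 of each window. EZH2 lies at chr7:148884242-148884541, minus strand, CDC7 at chr1:91500862-91501161, plus strand (1 of 2 windows, as for EZH2, the other without a word), CLSPN at chr1:35769929-35770228, minus strand, TYMS at chr18:657403-657702, plus strand and CDC20 at chr1:43358731-43359030, plus strand.
EZH2: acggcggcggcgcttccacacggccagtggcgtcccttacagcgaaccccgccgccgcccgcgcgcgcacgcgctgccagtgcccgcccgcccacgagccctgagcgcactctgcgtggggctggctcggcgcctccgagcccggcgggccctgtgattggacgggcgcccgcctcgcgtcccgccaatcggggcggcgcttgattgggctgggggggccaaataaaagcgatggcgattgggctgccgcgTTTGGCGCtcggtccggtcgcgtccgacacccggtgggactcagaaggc
CDC7: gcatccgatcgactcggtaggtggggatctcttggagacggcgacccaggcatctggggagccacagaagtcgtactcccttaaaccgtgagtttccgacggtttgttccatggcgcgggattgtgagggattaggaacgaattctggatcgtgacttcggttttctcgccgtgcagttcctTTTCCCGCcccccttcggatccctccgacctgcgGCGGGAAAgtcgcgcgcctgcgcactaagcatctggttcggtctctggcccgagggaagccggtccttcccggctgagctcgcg
CLSPN: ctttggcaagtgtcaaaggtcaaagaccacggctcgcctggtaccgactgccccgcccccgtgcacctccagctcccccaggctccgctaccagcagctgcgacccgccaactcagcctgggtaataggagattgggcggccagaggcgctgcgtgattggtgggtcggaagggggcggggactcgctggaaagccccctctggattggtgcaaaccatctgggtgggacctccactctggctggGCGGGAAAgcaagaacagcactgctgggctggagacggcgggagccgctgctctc
TYMS: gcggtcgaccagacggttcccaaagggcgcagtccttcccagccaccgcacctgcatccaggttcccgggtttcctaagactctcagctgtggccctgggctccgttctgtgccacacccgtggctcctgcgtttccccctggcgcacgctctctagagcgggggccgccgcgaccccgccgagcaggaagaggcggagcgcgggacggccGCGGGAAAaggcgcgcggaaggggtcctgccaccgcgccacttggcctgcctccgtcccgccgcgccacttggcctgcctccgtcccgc
CDC20: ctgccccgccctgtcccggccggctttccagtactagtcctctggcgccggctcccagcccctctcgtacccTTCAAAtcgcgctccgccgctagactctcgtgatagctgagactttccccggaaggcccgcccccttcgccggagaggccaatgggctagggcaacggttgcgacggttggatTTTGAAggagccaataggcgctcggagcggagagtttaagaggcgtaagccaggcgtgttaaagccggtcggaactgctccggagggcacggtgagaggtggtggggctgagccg

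Across the genome, the genes whose windows held an E2F word were also more often higher. Of 559 such genes tested, 354 (63.3%) were higher without RB1 RNA, with a median of 0.17, against 50.1% and a median of 0.00 among the 10249 tested genes with any window. Without the members of the cell cycle lists 517 remained, of which 315 were higher, with a median of 0.15. At an unadjusted p under 0.05, 12 of them were higher and 11 lower, beside 266 and 200 of the 10249. The medians of these 517 were 0.05 in the chip of BT549 and 0.09 in that of MDA-MB-468. Genes with the homology word, 1640 in all, had 53.1% higher and a median of 0.04. Within the replication list, genes with an E2F word and those without differed little, with medians of 0.63 over 21 and 0.47 over 14 genes. Promoters with these words are rich in C and G, and the part of base composition in these shares was not tested.

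Genes that package new DNA and those that repair it leaned the same way. All 15 tested members of the replication chromatin list were higher, with a median of 0.49 and medians of 0.36 in either chip. EZH2, the methyltransferase of the Polycomb complex PRC2, was 9.98 and 9.91 in BT549 and 10.68 and 10.30 in MDA-MB-468. In MDA-MB-157 it was 9.002 and 8.92, in MDA-MB-231 9.17 and 8.87 and in SUM149 8.45 and 8.59. The kinds did not overlap (1.38 ± 0.37, unadjusted p = 0.012 in limma), and 2 other probes gave 1.24 and 1.30. SUZ12 and EED, which encode the other core subunits of PRC2, each differed by 0.21. DNMT1, the maintenance DNA methyltransferase, was 13.23 in BT549, 14.78 in MDA-MB-468 and 12.70 to 12.98 elsewhere, and STMN1, a microtubule-destabilizing protein, differed by 1.48 ± 0.49.

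USP1, the deubiquitinase that resets FANCD2 and PCNA after repair, stood furthest apart among all 15 tested replication chromatin and 11 tested DNA repair genes. It was at 11.45 and 11.57 in BT549 and at 11.86 and 11.86 in MDA-MB-468. The lines with RB1 RNA were at 9.85 and 9.54 (MDA-MB-157), 10.15 and 9.92 (MDA-MB-231) and 9.87 and 9.84 (SUM149). The gap between the kinds exceeded the spread within either, with means of 11.69 ± 0.24 (SD, n = 2 lines) and 9.86 ± 0.17 (n = 3 lines), a 3.54-fold difference. The unadjusted p was 0.00218 and the adjusted p 0.9996 in limma. Within the chips the differences were 1.82 and 2.004, in the WHF-treated cultures 1.64, and a second detected probe gave 1.55. BRCA1 and its partner BARD1, RAD54L, an engine of homologous recombination, and USP1 were the 4 of 11 repair genes whose arrays did not overlap. In each of them the arrays without RB1 RNA were above, a pattern of 5.27% of all genes. Of the 11 repair genes 10 were higher, beside 50.5% of all genes. BLM, a helicase, was the only one of the 11 that was lower, by −0.31.

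Enzymes that make nucleotides did not follow as a group, although several are textbook E2F targets. Of 9 tested, 7 were higher, but the median was 0.07 and only 1 was higher in both chips. That gene was TYMS, thymidylate synthase, at 12.40 and 12.11 in BT549 and 13.13 and 13.05 in MDA-MB-468, against 11.28 to 12.03 on the 6 arrays with RB1 RNA. Its difference was 1.06 ± 0.41 (unadjusted p = 0.0465). TK1, thymidine kinase, was lower in both chips, by −0.77 and −0.42, and the ribonucleotide reductase genes RRM1 and RRM2 differed by 0.04 and 0.19.

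Mitotic genes were higher in the untreated cultures, but less evenly. Of 46 G2/M genes, 41 were higher, with a median of 0.41. At an unadjusted p under 0.05 in limma, 2 were higher and 0 lower, beside 2.62% and 1.86% of all genes. The medians within the chips were 0.87 for BT549 minus MDA-MB-157 and 0.08 for MDA-MB-468 minus SUM149, so that in the second chip 24 of 46 were higher, close to the 50.5% of all genes. MELK, a kinase of dividing and stem-like cells, was 12.05 and 12.45 in BT549 and 12.86 and 12.74 in MDA-MB-468, against 10.21 to 11.58 on the other 6 arrays. It differed by 1.63 ± 0.50 (unadjusted p = 0.0213), and another probe gave 1.57. CDC20, the activator of the anaphase-promoting complex, differed by 1.18 ± 0.46, with 1.999 in the chip of BT549 and 0.27 in that of MDA-MB-468. MKI67, the proliferation marker, and TOP2A differed by 0.19 and 0.03. For 7 of the 46 all 4 arrays without RB1 RNA were above all 6 with it, beside 5.27% of all genes. For 1 they were below, beside 4.56%. That was MAD2L1, a spindle checkpoint gene, which differed by −0.41.

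**Figure D3:**
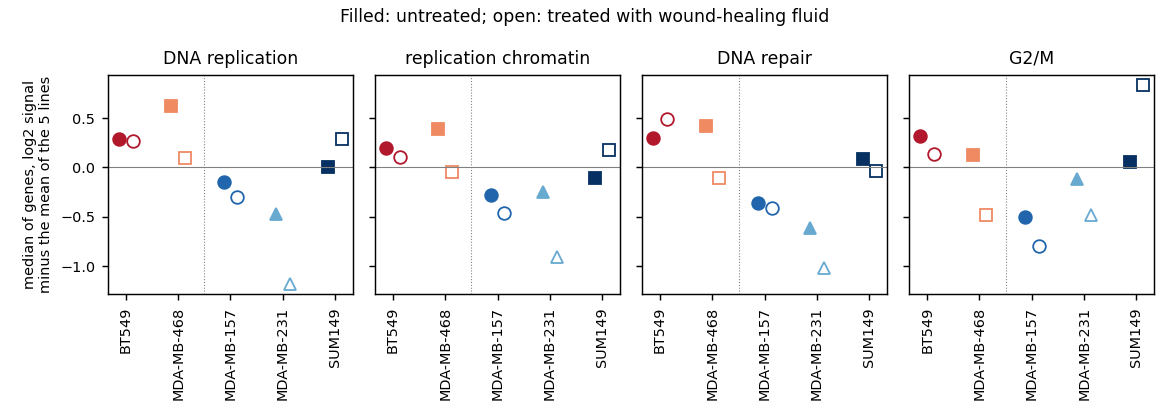
Median over genes of the log2 signal relative to the mean of the 5 lines (vertical axis), for 4 lists and each line, in untreated (filled) and WHF-treated (open) cultures. In untreated cultures BT549 and MDA-MB-468, left of the dotted line, were above 0 in each list, and SUM149 was too for DNA repair (0.08) and G2/M genes (0.06). In treated cultures SUM149 was the highest line for replication genes (0.29) and for G2/M genes (0.84).

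The comparison was repeated in the 10 WHF-treated cultures of the same lines, which are other cultures but not other tumors. Again 0% of probes passed an adjusted p of 0.1 in limma, and 708 had an unadjusted p under 0.05. Of replication genes 37 of 41 were higher, with a median of 0.62, beside 50.8% of all genes higher. Here the lines of the kinds overlapped, with medians of 0.29 in SUM149, 0.27 in BT549, 0.10 in MDA-MB-468, −0.30 in MDA-MB-157 and −1.18 in MDA-MB-231, so that the lowest line stood far from the others. Of G2/M genes 16 of 46 were higher, with a median of −0.09. Relative to the 5 lines, G2/M genes were at 0.06 in untreated and 0.84 in treated SUM149, while MDA-MB-468 stood at 0.13 and −0.48. A test of the response itself, treated minus untreated, between the kinds called 0% of probes, with 520 at an unadjusted p under 0.05, so that this shift of G2/M genes was not called for any gene. Its median over the 46 genes was −0.48, against 0.02 for all genes.

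The RB1 locus was looked at through its neighbours on 13q14. Of 10 annotated genes with a probe on either side, 12 of 20 passed the filter, and 10 of these were higher in the lines without RB1 RNA (median 0.32). The 2 lines went opposite ways. Within the chip of BT549 12 of 12 were higher, with a median of 1.31, and within that of MDA-MB-468 2 of 12 were, with a median of −0.65. Without BT549 the median over the lines was −0.46.

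BT549 carried RNA of genes that surround the silent RB1 probe. LPAR6, a lysophosphatidic acid receptor gene that lies inside the RB1 gene, was at 9.96 and 10.24 in BT549 and below background in the other 4 lines (4.63 to 5.12). RB1-DT, the transcript that starts next to the RB1 promoter and runs away from it, was 9.33 and 9.16 in BT549 and 5.49 to 6.47 on the other 8 arrays. HTR2A, a serotonin receptor gene, was 8.997 and 9.24 there and below background elsewhere. ITM2B and MED4, the next genes on one side, were higher in BT549 (13.62 and 10.07) than in the lines with RB1 RNA (12.52 to 12.86 and 8.74 to 9.07). In MDA-MB-468 the same genes were the lowest of the 5 lines, at 11.86 and 8.44, and RCBTB2, on the other side, was at background (4.62) while BT549 had 8.28. FNDC3A was 10.18 in BT549 and 8.17 in MDA-MB-468. RUBCNL was the only 1 of 12 tested neighbours that separated the kinds, beside 5.27% of all genes above and 4.56% below. It was at 6.37, 6.93, 6.56 and 6.22 without and below background in all lines with RB1 RNA, at least 1.88-fold (measured means 6.52 and 5.05, adjusted p = 0.9996 in limma). It passed the filter only through the arrays without RB1 RNA, so that the filter itself favoured this separation.

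**Figure D4:**
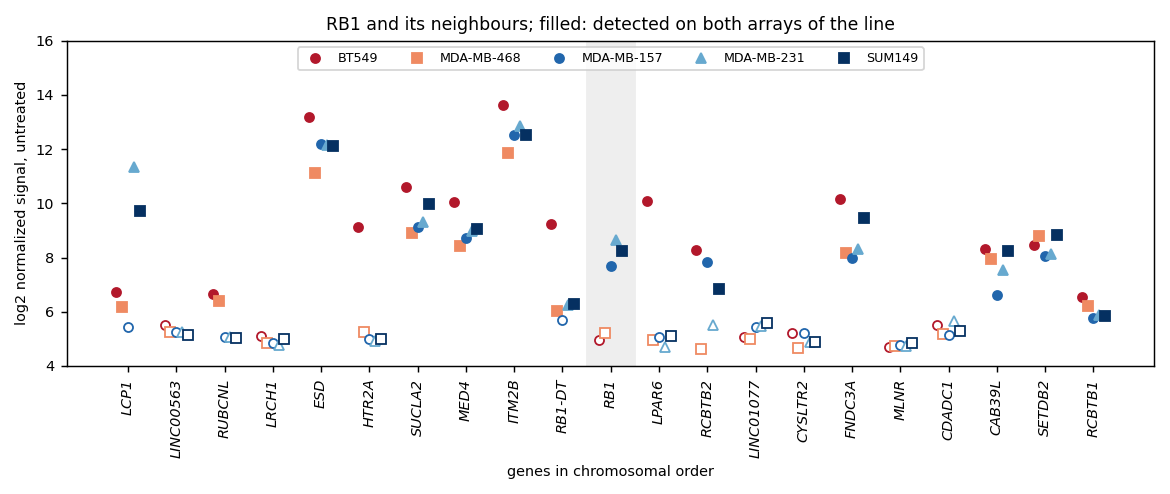
Line means of log2 normalized signal in untreated cultures (vertical axis) of RB1, shaded, and the 10 genes with a probe on either side, in chromosomal order and not to scale. Filled points were above background on both arrays of a line. BT549 lay above the other lines at LPAR6 (10.10), HTR2A (9.12) and RB1-DT (9.24), and MDA-MB-468 lay at the low end for ITM2B and MED4.

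The largest differences were taken from all tested genes, those of the cell cycle lists included. The extremes of so many genes are larger than those of a short list by selection alone. Of 12883 genes tested, 316 were higher and 230 lower without RB1 RNA with an unadjusted p under 0.05, no overlap of arrays and the same sign in both chips. By the p-value alone, 2.62% of all genes were higher and 1.86% lower, and none passed adjustment. The 10 with the largest difference each way are named. AUTS2, a gene of neuronal development whose product joins a Polycomb complex, had the lowest adjusted p of all probes, 0.431 in limma. It was at 10.44 and 10.30 in BT549 and 10.46 and 10.37 in MDA-MB-468, and between 5.33 and 5.97 on the other 6 arrays. The difference was 4.76 ± 0.32, and 4.50 and 4.83 within the chips. SLFN11, which blocks stalled replication forks and makes cells sensitive to DNA-damaging drugs, was 11.78 and 11.87 in BT549 and 11.09 and 11.23 in MDA-MB-468. On the same probe it was 8.12 and 7.91 in MDA-MB-157 and not above background in MDA-MB-231 and SUM149, a difference of 5.31 ± 0.97 (unadjusted p = 0.00246). A second probe, detected on 4 of the 6 arrays with RB1 RNA, gave 4.51.

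KCNK2, a potassium channel gene, and RETREG1, a receptor for the autophagy of the endoplasmic reticulum, differed by 4.39 ± 0.59 and 3.66 ± 0.52. GLYATL2, an acyltransferase gene, and PTCHD1, a gene of the Patched family, were below background in all 3 lines with RB1 RNA, and were at least 15.3-fold and 12.9-fold higher (measured means 9.54 against 4.63 and 9.29 against 4.67). For these, as for CRABP2, a carrier of retinoic acid, and CEACAM1, an adhesion gene, MDA-MB-468 was far above BT549, by 13.57 against 8.88 in CRABP2. Further CEACAM1 probes gave 1.03 and 3.11 and overlapped between the kinds. LHX2, a homeobox gene, was also high in MDA-MB-157 (9.02). LOC100505715, which has no assigned role here, was 9.38 and 9.73 without and 4.91 to 7.91 with RB1 RNA.

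EPDR1 had the largest difference of any tested probe. It was below background in BT549 (4.99 and 5.08) and MDA-MB-468 (4.89 and 4.80), and at 12.31 and 12.21 in MDA-MB-157, 11.86 and 11.95 in MDA-MB-231 and 10.67 and 10.87 in SUM149. It was at least 65.0-fold lower without RB1 RNA (measured means 4.94 and 11.65, adjusted p = 0.515 in limma). LY96, whose product MD-2 presents lipopolysaccharide to the receptor TLR4, was below background on the same 4 arrays and at 8.62 to 11.11 on the others, at least 22.0-fold lower (measured means 4.603 and 10.08, adjusted p = 0.829). PTPRM, a receptor tyrosine phosphatase gene, was at least 17.2-fold lower (measured means 4.78 and 9.73, adjusted p = 0.973). BEX3 was 6.51 to 6.69 without and 9.97 to 13.53 with RB1 RNA.

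The remaining genes named as lower were these. TENM3, an adhesion gene, differed by −5.15 ± 0.73, the cytokine gene IL32 by −5.67 ± 1.39 and PLAT, tissue plasminogen activator, by −5.64 ± 1.23. LAMB3, a chain of the epithelial laminin, and COXFA4L3 were at 12.82 to 14.51 in MDA-MB-231 and SUM149 and lower in MDA-MB-157, at 7.36 and 8.43. Further LAMB3 probes gave −1.66 and −1.25 and overlapped between the kinds. Of the further COXFA4L3 probes, the one at −3.49 overlapped and the one at −1.64 did not. TXNIP, a brake on glucose uptake, was at background in MDA-MB-468 (5.16 and 4.97) but at 11.10 and 10.97 in BT549, and its difference was −5.57 ± 1.78. In treated cultures all 20 named genes kept their sign, from 2.67 to 4.63 for those higher and from −6.64 to −3.20 for those lower.

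**Figure D5:**
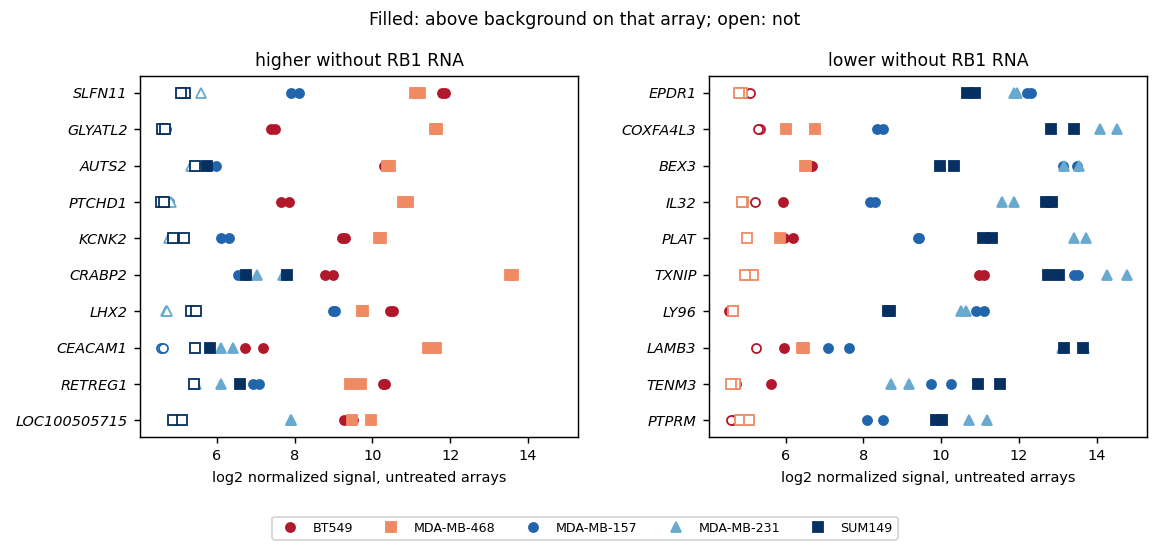
Log2 normalized signal (horizontal axis) on the 10 untreated arrays for the 10 genes highest (left) and 10 lowest (right) in the lines without RB1 RNA, 1 point an array. By the rule that named them, red and orange points (BT549 and MDA-MB-468) do not overlap the blue ones. AUTS2 shows the least spread within the kinds, and EPDR1 the widest gap.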

How the data were processed

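Total RNA of 20 cultures was labelled and hybridised to Illumina HumanHT-12 beadchips (V3.0 per the methods). The deposited table of bead signals gives an intensity and a detection p-value per probe, made by the authors in BeadStudio, for 47319 probes, of which 30112 had 1 gene symbol, 8 several and 17199 none in the platform annotation, and 30073 symbols were matched to the RefSeq gene table. A second deposited table holds intensities quantile-normalized by the authors and served as an alternative. Signals were background-corrected and quantile-normalized with neqc of limma 3.58.1 (R 4.3.3; offset 16) and log2-transformed, and figures were drawn with matplotlib 3.10.9. Arrays give no counts, so that no counting interval is printed. The test took the 23516 probes (12883 genes) that 4 or more of the 10 untreated arrays detected at p under 0.05. Through the arrays of 1 kind only, 255 genes passed, for which the filter itself favoured a difference. Replicate arrays were averaged per line, so that the line was the unit, and limma compared 2 lines with 3, two-sided, with Benjamini-Hochberg adjustment at 0.1. The p-values measure the spread between these 5 lines, and an exact two-sided rank-sum test of 2 against 3 lines cannot go below p = 0.2.

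A gene was read by its brightest probe that passed. The genes named were all members of the G1, E2F factor and neighbour lists, up to 4 of each other list by smallest p, and the 10 largest differences each way among probes with an unadjusted p under 0.05, no overlap of arrays and the same sign in both chips. Further list members named for contrast were chosen after their values were seen. The lines, lists and rules were chosen with earlier results of these data known. A fold against a kind below background on all its arrays is a bound, taken against the higher of the probe's own signal and the lowest signal detected on each array. Same-lettered replicates of different lines did not deviate together (correlations −0.0921 to 0.134), so that they were not paired. The script was tested on simulated data. Alternatives covered the filter, background, offset, normalization, chip, subtype, variance model and each line or replicate left out.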

Additional observations from a re-analysis of the deposited data

Results flagged for a closer look

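CDKN1C, which encodes the inhibitor p57, went opposite ways in the 2 chips that hold a line of either kind. Its log2 difference was −2.78 for BT549 minus MDA-MB-157 and 1.87 for MDA-MB-468 minus SUM149, although it was not above background on either array of BT549 or on 1 of 2 of SUM149, so that both differences are taken against dim values. The test of the difference between the chips, on replicate cultures in limma, passed for this gene. It passed for other G1 genes as well, among them CCNE1, CDKN2A and CDKN1B, since only the spread between the 2 cultures of a line enters it. Over the 5 lines it differed by −0.91 (unadjusted p = 0.441 in limma).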

How the results depend on the processing

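The count of called probes in untreated cultures was 0 under every filter, background, offset, normalization, chip block, subtype and variance setting and with each line or replicate left out (range 0 to 0), with 663 to 2015 probes at an unadjusted p under 0.05 in limma. For treated cultures and the response, which were rerun only on the authors' normalized values and with each line or replicate left out, it was also 0. It was 69 where the 10 arrays entered limma with the line as a random block, and 50 with the replicate block added, both of which also use the spread between cultures of a line. Within a chip, where only the 2 cultures of each line measure error, 13777 probes differed between BT549 and MDA-MB-157 and 13501 between MDA-MB-468 and SUM149. The median of the replication genes stayed between 0.38 and 0.82. That of the G2/M genes was 0.87 and 0.0781 within the 2 chips, and 0.24 to 0.55 with a line or replicate left out. That of the 13q14 neighbours was 1.31 and −0.65 within the chips, and −0.46 without BT549 to 1.08 without MDA-MB-468. The cause of these shifts was not tested. Of 111 named genes, with RB1 left out, 98 kept their direction within the chip of BT549, 85 within that of MDA-MB-468 and 94 without BT549. The 39 with an unadjusted p under 0.05 did in every setting. However, they include the 20 genes chosen for no overlap and the same sign in both chips, for which such settings could not turn it.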

Other observations

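Targets of p53, the factor that answers DNA damage, had 6 of 9 tested genes higher in the lines without RB1 RNA, beside 50.5% of all genes. Their median log2 difference was 0.28. At an unadjusted p under 0.05 in limma 0 were higher and 0 lower, beside 2.62% and 1.86% of all genes.

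Of the neuroendocrine genes, 4 of 7 with a probe passed the filter. NCAM1, a neural adhesion molecule, was at 11.37 and 11.21 in BT549, at 6.35 and 6.68 in MDA-MB-468 and at 5.07 to 5.58 in the lines with RB1 RNA, a difference of 3.60 (unadjusted p = 0.0472 in limma). Further NCAM1 probes gave 1.35 and 1.48 and overlapped between the kinds. They differed by −0.13 and 0.01 between MDA-MB-468 and SUM149, and another probe was below background on all 10 arrays. ENO2, a neuronal enolase, differed by −0.90, and SYP, a synaptic vesicle protein, by 0.93. Of 8 mesenchymal markers, 3 were higher and 5 lower without RB1 RNA, with a median of −0.10. The 2 lines without RB1 RNA lay at opposite ends, with per-line medians of 2.01 in BT549 and −3.15 in MDA-MB-468. Of these markers only FN1, which encodes fibronectin, was lower on all 4 arrays without RB1 RNA, by −1.90 (unadjusted p = 0.0153 in limma). This was 1 of 8, beside 4.56% of all genes.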
